A study of Rattus norvegicus with 12 samples.

Results

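The 9 genes described here encode the transporters that load and clear glutamate and the proteins that turn it into glutamine and back. They are the vesicular glutamate transporters Slc17a7, Slc17a6 and Slc17a8, the plasma membrane transporters Slc1a2, Slc1a3 and Slc1a1, and, for the glutamine cycle, Glul, Slc38a1 and Glud1. They are 9 of the 17494 genes in the table of counts, found there by symbol, and all 9 passed the filter on low counts. The list was selected on knowledge of the measured differences in expression between boldine-treated and untreated rats, and Slc17a6 is among the genes the study lists by nominal p, so the treatment differences below are a description and not a test of these genes.

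Bulk RNA of the brain, named as hippocampus in the study's methods, was sequenced from 12 male Long Evans rats, 1 library per rat, without sham-exposed rats. All 12 were wild type, were exposed to 3 blasts, 1 per day, at 10 weeks of age, were housed singly, were tested for cued fear memory in week 27 after blast and were sacrificed in week 29. The 6 blast-boldine rats (rats 12, 17, 19, 20, 32 and 35) ate chow supplemented with boldine, an alkaloid of the boldo tree that blocks connexin hemichannels, from the second week after blast until sacrifice. The 6 blast-controls (rats 1, 4, 5, 6, 7 and 9) ate standard chow. The groups thus share the exposure, the strain, the age and the single time point, and an effect of boldine in rats without blast cannot be seen in this design.

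Glutamate is the main excitatory transmitter of the hippocampus. Vesicular transporters pump it into synaptic vesicles, with VGLUT1 (Slc17a7) the prevailing form in principal cells of hippocampus and cortex, VGLUT2 (Slc17a6) in thalamic and other subcortical projections, and VGLUT3 (Slc17a8) in sparse neurons that mainly use another transmitter. After release, GLT-1 (Slc1a2) and GLAST (Slc1a3) on astrocytes and EAAC1 (Slc1a1) on neurons remove glutamate from the extracellular space. Astrocytes convert it to glutamine with glutamine synthetase (Glul), neurons take glutamine back through transporters such as SNAT1 (Slc38a1), and glutamate dehydrogenase (Glud1) links glutamate to the citric acid cycle in mitochondria.

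Promoter sequences are shown for the member with the largest treatment difference, Slc17a6, for its abundant paralog Slc17a7, and for Slc1a2 and Glul, the pair whose levels varied most closely together between rats. RefSeq promoters of GRCr8 were found for 8 of the 9 genes, and none is shown for Slc1a1. Each sequence is the 250 bases before a start site, 5′ to 3′ in the direction of transcription, and where several starts were listed the start that best matched the span of the counted gene model was used. Capitals mark matches, on either strand, to the GC box GGGCGG, to the CRE half-site TGACG or to the CCAAT box CCAAT.
Slc17a6 (chr1:110348197-110348446, plus strand): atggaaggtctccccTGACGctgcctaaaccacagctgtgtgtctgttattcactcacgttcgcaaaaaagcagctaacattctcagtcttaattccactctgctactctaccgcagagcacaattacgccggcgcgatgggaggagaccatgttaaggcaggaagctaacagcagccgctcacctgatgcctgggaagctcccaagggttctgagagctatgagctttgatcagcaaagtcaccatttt
Slc17a7 (chr1:104785955-104786204, plus strand): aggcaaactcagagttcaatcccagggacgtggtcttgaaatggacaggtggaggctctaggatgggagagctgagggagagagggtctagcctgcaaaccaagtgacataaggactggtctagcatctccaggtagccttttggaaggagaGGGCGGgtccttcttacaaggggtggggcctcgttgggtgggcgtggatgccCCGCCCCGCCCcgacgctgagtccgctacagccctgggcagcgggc
Slc1a2 (chr3:109459859-109460108, plus strand): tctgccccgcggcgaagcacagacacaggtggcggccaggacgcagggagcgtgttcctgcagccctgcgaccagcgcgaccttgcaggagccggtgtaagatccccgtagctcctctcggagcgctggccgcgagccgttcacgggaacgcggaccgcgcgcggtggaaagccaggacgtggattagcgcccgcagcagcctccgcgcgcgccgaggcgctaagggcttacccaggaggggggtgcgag
Glul (chr13:68575816-68576065, plus strand): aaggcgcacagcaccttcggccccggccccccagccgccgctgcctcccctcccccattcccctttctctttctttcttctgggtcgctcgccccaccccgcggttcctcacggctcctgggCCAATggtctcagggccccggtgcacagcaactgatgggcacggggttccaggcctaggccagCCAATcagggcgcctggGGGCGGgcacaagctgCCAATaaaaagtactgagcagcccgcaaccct

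The Slc17a6 window held 1 CRE half-site and neither of the other motifs. Slc17a7 held 3 GC boxes, of which a pair overlaps by 1 base, and Glul held 1 GC box and 3 CCAAT boxes. The Slc1a2 window held none of these letters and was 71.2% G and C, against 50.8% for Slc17a6 and a median of 51.2% over the 33469 RefSeq promoters. Of all promoters of the same length, 30.5% held a GC box, 18.2% a CRE half-site and 34.0% a CCAAT box. The match of a motif is a description of the letters, and binding was not measured.

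The libraries held between 10148474 and 40850106 counts on genes, except that of blast-control rat 6, which held 74008. Levels are given as CPM, which are counts relative to the library total with TMM normalization. In rat 6 each count amounted to 15.8 CPM, so that 3 counts, the smallest number taken as detected, came to 47.5 CPM there and to at most 0.307 CPM elsewhere; these floors and the Poisson intervals given for rat 6 cover counting error only. That library also stood apart in makeup, since its 8 neuronal markers summed to 20182 CPM against 5763 to 8598 CPM in the other 11 rats. Nefl (7445 CPM), Syt1 (6305 CPM) and Map2 (4689 CPM) made up most of that sum and lay above every other rat. Stmn2 (126.7 CPM), Tubb3 (63.4 CPM) and Eno2 (285.1 CPM) lay below every other rat, and Snap25 and Rbfox3 lay within the range of the others. The labels name no batch. The library names carry suffixes that each occur on a pair of libraries, as if the libraries came in 2 sets, called sheets here for brevity. Only assignments with 1 library of each suffix per set, and with rat numbers that rise with the suffix in both sets, were considered. That left 4, and the one that best explained the first principal component (94.8%, against 1.58% for treatment) was used. It put rats 1, 7, 9, 20, 32 and 35 in sheet P and the others in sheet Q, with 3 rats of each treatment in each. Rat 6 shares its suffix with rat 9, so the sheet of rat 9 fixed that of rat 6. Since the sheets were assigned in part from the values, differences in level between them are described without a test, and values within them are given beside the pooled ones. A separation of genes by sheet follows in part from that choice. Of the markers of hippocampal principal cells, Prox1 (136.9 CPM in blast-controls without rat 6) and Neurod6 (208.7 CPM) were present and Spink8 lay under 0.2 CPM in every rat but rat 6, which had no count for it.

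Among the vesicular transporters, Slc17a6 had a lower mean and Slc17a8 a higher mean in blast-boldine rats, and the means of Slc17a7 lay close together. No treatment difference of the 9 genes passed the test across all genes. Slc17a6 has 12 exon blocks on chromosome 1 of mRatBN7.2, from 101212489 to 101252543 on the plus strand. In blast-boldine rats its level was 11.8 CPM in rat 12, 15.3 in rat 17, 27.01 in rat 19, 27.02 in rat 20, 21.95 in rat 32 and 26.7 in rat 35. In blast-controls it was 37.3 CPM in rat 1, 16.4 in rat 4, 39.6 in rat 5, 63.4 in rat 6, 37.1 in rat 7 and 33.0 in rat 9. Each of the 6 treated rats measured less than the median blast-control, and 5 of the 6 blast-controls lay above every blast-boldine rat, with rat 4 the control that made the groups overlap. The value of rat 6 rests on 4 counts, with an exact 95% Poisson interval from 17.3 to 162.2 CPM.

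Slc17a6 averaged 21.6 ± 6.64 CPM (SD, n = 6) with boldine and 37.8 ± 15.1 CPM (SD, n = 6) without it, or 32.7 ± 9.41 CPM (SD, n = 5) when rat 6 was left out. Its log2 fold change was -0.64 (SE 0.27, 95% interval -1.22 to -0.06) and, without rat 6, -0.60 (SE 0.27, interval -1.19 to -0.02). The adjusted p over all genes tested was 0.99996 with and 0.9998 without rat 6 (quasi-likelihood test of edgeR, Benjamini-Hochberg). When the sheet entered the fit of 11 rats as a covariate, the estimate was -0.57 (SE 0.22). In sheet P the 3 blast-boldine rats, at 21.95 to 27.02 CPM, all lay under the 3 blast-controls, at 33.0 to 37.3 CPM. In sheet Q without rat 6 the 3 blast-boldine rats spanned 11.8 to 27.01 CPM and the remaining pair of blast-controls, rats 4 and 5, measured 16.4 and 39.6 CPM. The difference in mean log2 CPM was -0.51 in sheet P and -0.59 in sheet Q without rat 6.

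Across the table, 0 of the 12325 genes tested (0%) had an adjusted p below 0.05, with 132 genes (1.07%) at an unadjusted p under 0.05 in edgeR, 85 in DESeq2 and 115 in limma-voom. Without rat 6 no gene of 12529 passed either, and 175 (1.4%) had an unadjusted p under 0.05. Of the 9 members, 1, Slc17a6, was among the genes under that unadjusted threshold in both fits. The groups did not overlap for 10 of the 12325 genes (0.0811%) and, without rat 6, for 19 of the 12529 (0.152%), and for none of the 9 members in either. Nothing is read from these counts of members, since the contrast was known when the list was made.

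Slc17a7 has 12 exon blocks on chromosome 1, from 95649765 to 95660712 on the plus strand. It ranged from 778.7 to 1080.5 CPM in blast-boldine rats, with a median of 869.4, and from 694.4 to 1205.8 CPM in blast-controls, with a median of 822.6. The blast-controls spanned the whole range of the blast-boldine rats, with 3 of them below and 2 above it. Slc17a7 had a log2 fold change of -0.02 (SE 0.18, 95% interval -0.41 to 0.36). It was -0.07 (SE 0.17) without rat 6. In sheet P blast-boldine rats were higher by 0.15 on the log2 scale, and in sheet Q without rat 6 the difference was -0.22.

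The reads of Slc17a6 per 1000 reads of Slc17a7, a ratio within each library that does not depend on its scaling, ran from 15.1 to 33.5 in blast-boldine rats around a median of 24.3. In blast-controls they ran from 13.6 in rat 4 to 85.1 in rat 6, with a median of 47.4. Without rat 6 the highest blast-control was rat 5, at 56.5, and the mean was 38.5 ± 18.0 (SD, n = 5) against 23.9 ± 6.27 (SD, n = 6) in blast-boldine rats. Rat 4 combined the lowest Slc17a6 and the highest Slc17a7 of the blast-controls and lay below all blast-boldine rats. In sheet P the blast-boldine rats, at 23.5 to 26.5, lay under the blast-controls, at 27.6 to 53.7, and in sheet Q without rat 6 the ranges were 15.1 to 33.5 and 13.6 to 56.5.

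Slc17a8 has 12 exon blocks on chromosome 7, from 23995749 to 24048079 on the minus strand. In blast-boldine rats its level was 13.8 CPM in rat 12, 10.7 in rat 17, 11.5 in rat 19, 9.70 in rat 20, 8.27 in rat 32 and 9.25 in rat 35. In blast-controls it was 9.88 CPM in rat 1, 7.90 in rat 4, 9.73 in rat 5, 6.39 in rat 7 and 9.09 in rat 9. Rat 6 had 0 counts, and both its floor of 3 counts, 47.5 CPM, and the upper end of its exact 95% Poisson interval, 58.4 CPM, lie above the levels of all the other rats. The 3 highest values belonged to the 3 blast-boldine rats of sheet Q, which lay above every blast-control, and the 3 of sheet P lay among the blast-controls.

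Without rat 6, Slc17a8 averaged 10.5 ± 1.96 CPM (SD, n = 6) with boldine and 8.60 ± 1.46 CPM (SD, n = 5) in the controls. The log2 fold change was 0.31 (SE 0.19, 95% interval -0.10 to 0.72), and 0.29 (SE 0.17) without rat 6 (adjusted p over all genes 0.99996 and 0.9998 in edgeR). In sheet P the difference was 0.12 on the log2 scale and in sheet Q without rat 6 it was 0.44. The difference between sheets in the effect of treatment did not pass the test (interaction of 0.37, adjusted p = 0.89 in edgeR). With at most 3 rats per treatment in a sheet, that does not show that the sheets agree.

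**Figure D1:**
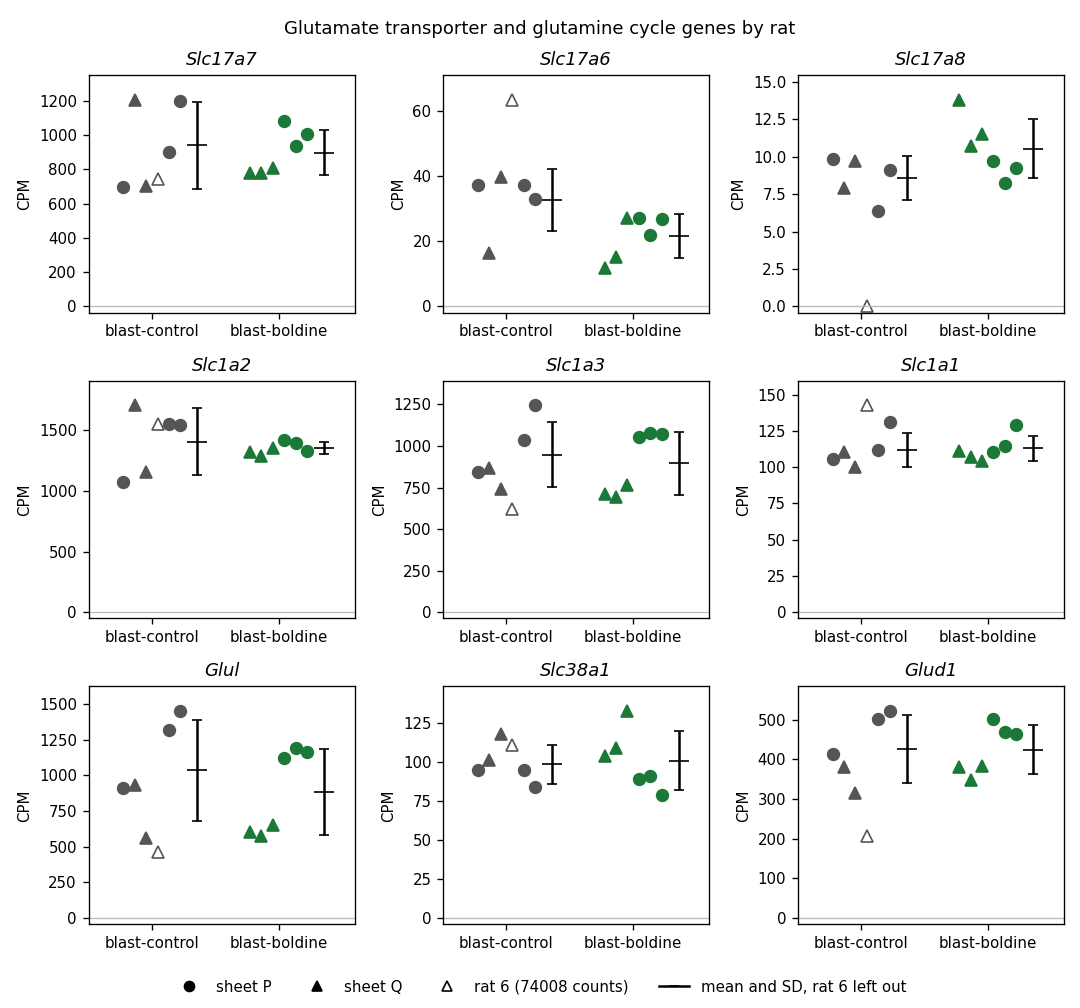
CPM (vertical axes, with a line at 0) of each of the 9 genes in each rat, blast-control in grey and blast-boldine in green, with circles for sheet P, triangles for sheet Q, the open triangle for rat 6, and bars for the mean and SD without rat 6. For Slc17a6 the blast-boldine rats lie between 11.8 and 27.02 CPM and 4 of the 5 deep blast-controls between 33.0 and 39.6 CPM, while the Slc1a2 values of blast-boldine rats sit close together inside the range of the blast-controls.

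Slc17a6 is expressed by thalamic neurons and by some cells of the hippocampal region, so the markers of neighbouring tissue and of Cajal-Retzius cells are given beside it. In bulk RNA, fewer cells of a type and less RNA per cell cannot be told apart. The 8 measured thalamus and habenula markers summed to between 41.3 and 97.1 CPM in blast-boldine rats and to between 41.9 and 82.4 CPM in blast-controls without rat 6, and of them Gbx2 and Gpr151 lay under 0.3 CPM in each of these 11 rats. Their median log2 fold change, over the 6 that passed the filter, was 0.06 without rat 6 and 0.08 with all 12 rats, with 2 lower and 4 higher in both fits. The 7 cortex and subiculum markers summed to 175.6 to 347.7 CPM and 179.9 to 312.1 CPM in these groups, and 4 of 7 were lower without rat 6 and 5 of 7 with all 12 rats, with a median of -0.10 in both fits. The 6 Cajal-Retzius cell markers summed to 178.1 to 285.3 CPM and 162.5 to 294.3 CPM, with Lhx1, Lhx5 and Ebf3 under 1 CPM on average. Most of that sum was Reln, at a mean of 205.2 CPM of 222.4 with boldine and 213.8 CPM of 229.3 in blast-controls without rat 6. Tp73 averaged 6.01 and 5.10 CPM. None of these markers passed the test across all genes.

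Between rats, after subtraction of the mean of each sheet, Slc17a6 had a Pearson's r of -0.13 with the summed thalamus and habenula markers (exact permutation p = 0.708; Spearman's rho -0.15, p = 0.653; n = 11 rats). With the cortex and subiculum markers r was 0.59 (exact permutation p = 0.0670, adjusted 0.100; rho 0.60, p = 0.0848; n = 11) and with the Cajal-Retzius cell markers it was -0.34 (exact permutation p = 0.308; rho -0.23, p = 0.519; n = 11). Since Reln makes up most of the Cajal-Retzius cell sum, this last r says little about the other markers of that list. These 3 relations and 3 with the astrocyte markers given below were computed as a family of 6 after the values of the genes had been seen, and p was adjusted over the 6. Without the 2 rats farthest from the median of the markers, r for Slc17a6 became -0.21, 0.55 and -0.58 for the 3 lists. Within sheet P alone (n = 6) it was 0.18, 0.44 and 0.51, so that the sign with the thalamus and habenula list and with the Cajal-Retzius cell list was not the same in that sheet.

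Among the plasma membrane transporters, the means of Slc1a2, Slc1a3 and Slc1a1 differed between the groups by less than the spread between rats. Slc1a2, whose product clears most of the glutamate released in forebrain, has 12 exon blocks on chromosome 3, from 89005129 to 89126498 on the plus strand. In blast-boldine rats its level ran from 1286.8 to 1421.1 CPM, with a median of 1341.2. In blast-controls it was 1072 CPM in rat 1, 1703.8 in rat 4, 1158.1 in rat 5, 1552.4 in rat 6, 1551.0 in rat 7 and 1544.5 in rat 9. The blast-boldine rats filled a gap in the blast-controls, with rats 1 and 5 below all of them and the other 4 above. As for Slc17a6, each of the 6 treated rats thus measured less than the median blast-control, here 1547.7 CPM. For Slc1a2 the log2 fold change was -0.08 (SE 0.13, 95% interval -0.37 to 0.21), and -0.06 (SE 0.13) without rat 6. Within sheets the difference in mean log2 CPM was 0.01 in sheet P and -0.09 in sheet Q without rat 6.

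Slc1a3 has 10 exon blocks on chromosome 2, from 57755495 to 57830605 on the minus strand. Its level ran from 693.5 to 1078.0 CPM in blast-boldine rats, with a median of 908.3, and from 617.8 to 1243.7 CPM in blast-controls, with a median of 856.2. The values separated more by sheet than by treatment. Sheet P rats lay between 844.2 and 1243.7 CPM (mean 1054.5, n = 6) and those of sheet Q without rat 6 between 693.5 and 868.3 CPM (mean 755.8, n = 5). The log2 fold change between treatments was -0.01 (SE 0.19, 95% interval -0.42 to 0.40), and -0.09 (SE 0.17) without rat 6. Within sheets the difference in mean log2 CPM was 0.05 in sheet P and -0.16 in sheet Q without rat 6.

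Slc1a1, the neuronal transporter, has 13 exon blocks on chromosome 1, from 226549932 to 226630027 on the plus strand. Over the 11 rats other than rat 6 together it had the smallest relative spread of the 9 genes. It ran from 104.6 to 129.2 CPM in blast-boldine rats and from 99.9 to 131.3 CPM in the 5 blast-controls. In blast-boldine rats alone Slc1a2 spread less, with a coefficient of variation of 3.69% against 7.70% for Slc1a1. For Slc1a1 the log2 fold change was -0.01 (SE 0.12, 95% interval -0.26 to 0.23), the narrowest interval among the 9. It was 0.01 (SE 0.09) without rat 6. Within sheets the difference in mean log2 CPM was 0.03 in sheet P and 0.03 in sheet Q without rat 6. Rat 6, at 142.6 CPM, rests on 9 counts with an exact 95% Poisson interval from 65.2 to 270.6 CPM.

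In the glutamine cycle, Glul, Slc38a1 and Glud1 differed between the sheets more than between the treatments. Glul has 7 exon blocks on chromosome 13, from 66025641 to 66034885 on the plus strand. In blast-boldine rats its level was 603.4 CPM in rat 12, 574.8 in rat 17, 654.5 in rat 19, 1118.6 in rat 20, 1188.7 in rat 32 and 1159.3 in rat 35. In blast-controls it was 911.0 CPM in rat 1, 934.3 in rat 4, 563.3 in rat 5, 459.4 in rat 6, 1314.5 in rat 7 and 1448.7 in rat 9. The blast-boldine rats fell into a pair of clusters by sheet, with none between 654.5 and 1118.6 CPM, and among the blast-controls rat 4 of sheet Q lay above rat 1 of sheet P.

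Without rat 6, Glul averaged 883.2 ± 300.2 CPM (SD, n = 6) with boldine and 1034.3 ± 352.6 CPM (SD, n = 5) in the controls. Its treatment difference (log2) was -0.10 (SE 0.30, 95% interval -0.74 to 0.54) with all rats and -0.23 (SE 0.28) without rat 6, and the library of rat 6, with 29 counts of Glul, thus moved it by more than 1.5 times. In the fit of 11 rats that includes the sheet it was -0.18, with an SE of 0.13. Within sheets the difference in mean log2 CPM was -0.06 in sheet P and -0.25 in sheet Q without rat 6.

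Slc38a1 has 16 exon blocks on chromosome 7, from 127738224 to 127802218 on the minus strand. Its level ran from 78.7 to 132.5 CPM in blast-boldine rats, with a median of 97.5, and from 83.9 to 117.7 CPM in blast-controls, with a median of 97.8. Its values were higher in sheet Q, at 100.9 to 132.5 CPM without rat 6, than in sheet P, at 78.7 to 94.7 CPM, with no overlap. The log2 fold change between treatments was 0.02 (SE 0.15, 95% interval -0.29 to 0.33), and 0.03 (SE 0.15) without rat 6. Within sheets the differences in mean log2 CPM had opposite signs, with -0.08 in sheet P and 0.07 in sheet Q without rat 6.

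Glud1 has 13 exon blocks on chromosome 16, from 9640312 to 9673959 on the plus strand. It ran from 347.9 to 502.7 CPM in blast-boldine rats, with a median of 423.5, and from 205.9 to 521.5 CPM in blast-controls, with a median of 397.2. Here the order of the sheets was the opposite of that for Slc38a1, with 413.6 to 521.5 CPM in sheet P and 316.1 to 383.5 CPM in sheet Q without rat 6, again with no overlap. The share of all genes without overlap between the sheets was not computed, so this is not read as a trait of Slc38a1 and Glud1. For Glud1 the log2 fold change was 0.09 (SE 0.19, 95% interval -0.33 to 0.51) and -0.01 (SE 0.15) without rat 6, whose 13 counts made it the lowest library, at 205.9 CPM. Within sheets the difference in mean log2 CPM was 0.00 in sheet P and 0.09 in sheet Q without rat 6. None of the 9 gene models shares exon bases with another gene of the table.

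**Figure D2:**
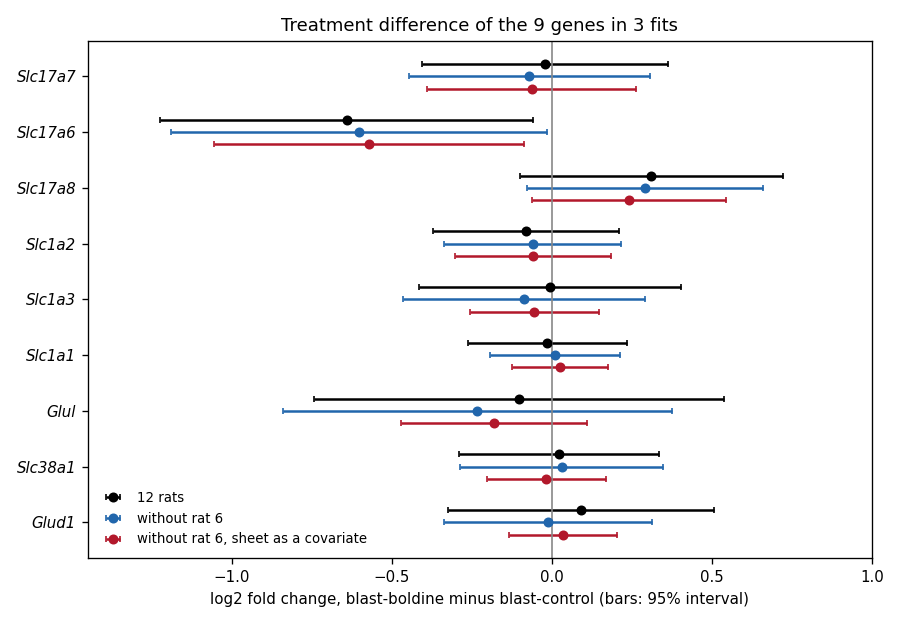
Log2 fold change of each of the 9 genes (horizontal axis, blast-boldine minus blast-control) with its 95% interval in 3 edgeR fits, with all 12 rats in black, without rat 6 in blue, and without rat 6 with the sheet as a covariate in red. The intervals of Slc17a6 lie below 0 in the 3 fits, at -0.64, -0.60 and -0.57, without adjustment for the number of genes, and those of the other 8 genes include 0.

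Of the 9 members, 6 had a lower estimate in blast-boldine rats and 3 a higher one, with a median log2 fold change of -0.01, against 0.00 over all 12325 genes tested, of which 48.7% were lower. Without rat 6 the count was also 6 lower and 3 higher and the median was -0.06, against 0.00 over 12529 genes. The members were not the same, since Slc1a1 went from -0.01 to 0.01 and Glud1 from 0.09 to -0.01. In the fit of 11 rats that includes the sheet the median was -0.05. No member had an interaction of treatment and sheet at an adjusted p under 0.05 in edgeR (lowest adjusted p 0.89, without rat 6). With so few rats per treatment in a sheet, that does not show that the sheets agree.

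The other genes of glutamate and glutamine metabolism and transport gave no call. Of the 22 listed, 20 were in the table, 19 passed the filter, and Slc25a12 and Slc25a13 were not analysed here. None had an adjusted p under 0.05, and 13 were lower and 6 higher in blast-boldine rats, with a median log2 fold change of -0.07 beside 0.00 over all genes. Without rat 6, 16 were lower and 3 higher, with a median of -0.10, and with the sheet as a covariate as well 14 were lower and 5 higher, with a median of -0.05. With all 12 rats, the largest estimates were those of Slc1a5, the neutral amino acid transporter ASCT2, at -0.42 (SE 0.27), and of Slc25a22, a mitochondrial glutamate carrier, at -0.25 (SE 0.28). They were followed by Slc38a3, the glutamine transporter SNAT3 of astrocytes, at -0.24 (SE 0.33), and Gpt, alanine aminotransferase, at -0.22 (SE 0.13). The order below Slc1a5 and Slc25a22 was not the same without rat 6. There a gene not named here came next, before Gpt at -0.24 (SE 0.11) and Slc38a3 at -0.21 (SE 0.35). In that fit 2 of the 19 genes, Gpt and the gene before it, had an unadjusted p under 0.05 in edgeR, beside 1.4% of all genes. With the sheet as a covariate as well, Slc38a3 was at -0.11 (SE 0.09).

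Gpt measured 25.3 ± 3.21 CPM (SD, n = 6) with boldine and 29.9 ± 1.98 CPM (SD, n = 5) in blast-controls without rat 6. Slc1a5 was scarce, at 1.88 ± 0.556 CPM (SD, n = 6) and 2.49 ± 0.806 CPM (SD, n = 5). Slc1a7, a transporter known mainly from retina, had no count in some libraries, lay at or under 0.154 CPM in the 11 rats other than rat 6 and did not pass the filter.

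The reads of Slc1a3 per 1000 reads of Slc1a2 ran from 535.8 to 807.9 in blast-boldine rats and from 509.6 to 805.3 in blast-controls without rat 6, nearly the same range. In sheet P the ranges were 739.9 to 807.9 and 668.8 to 805.3, and in sheet Q 535.8 to 564.6 and 509.6 to 642.4, both without rat 6.

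The levels of the members relative to each other were not used to choose them. They were compared per length, as CPM per kilobase of the counted exons, in the 11 rats other than rat 6. Slc1a2 had the highest level, at 576.5 ± 75.2 CPM per kilobase (SD, n = 11), followed by Slc17a7 at 458.4 ± 92.7, Glul at 373.4 ± 124.7 and Slc1a3 at 233.5 ± 47.1. Glud1 measured 143.0 ± 23.4, Slc1a1 62.3 ± 5.38 and Slc38a1 47.1 ± 7.36 CPM per kilobase (SD, n = 11). Slc17a6 followed at 6.71 ± 2.40 and Slc17a8 at 3.06 ± 0.619 CPM per kilobase (SD, n = 11). The 4 highest, which comprise VGLUT1, both astrocytic transporters and glutamine synthetase, thus stood far above VGLUT2 and VGLUT3, which made up 0.353% and 0.161% of the sum over the 9 genes.

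Pooled over the sheets, each of the 8 steps in this order passed the test (exact two-sided sign-flip permutation test of the difference in log2 reads per kilobase, n = 11 rats, p adjusted over the 8 pairs). The order had been taken from these same rats, so the direction of each step was set before the test. The p covers the spread between rats and not the lengths of the gene models. Not divided by length, mean CPM was 951.9 for Glul, 918.8 for Slc1a3 and 916.8 for Slc17a7, the reverse of their order per kilobase for Slc17a7. The narrowest steps were those from Slc1a2 to Slc17a7, 0.35 ± 0.16 (SD, n = 11) on the log2 scale and present in 11 of 11 rats (exact permutation p = 0.000977, adjusted 0.00156), and from Slc17a7 to Glul, 0.35 ± 0.37 (SD, n = 11). The latter was present in 9 of 11 rats (exact permutation p = 0.0166, adjusted 0.0166), was smaller than its SD, and was carried by sheet Q. There it was 0.71 ± 0.06 (SD, n = 5) and present in 5 of 5 rats, whereas in sheet P it was 0.05 ± 0.17 (SD, n = 6) and present in 4 of 6, so that Slc17a7 and Glul were not separated in sheet P. The step from Slc1a1 to Slc38a1 was 0.41 ± 0.32 (SD, n = 11; 9 of 11 rats, exact permutation adjusted p = 0.00446), with 0.63 ± 0.23 (SD, n = 6) in sheet P and 0.15 ± 0.21 (SD, n = 5), less than its SD, in sheet Q. The largest step was that from Slc38a1 to Slc17a6, 2.89 ± 0.64 (SD, n = 11), and Slc17a6 exceeded Slc17a8 by 1.05 ± 0.76 (SD, n = 11) in 10 of 11 rats (exact permutation adjusted p = 0.00391). For that last step the sheet means were 1.45 ± 0.42 (SD, n = 6) in sheet P and 0.58 ± 0.83 (SD, n = 5) in sheet Q. The other 5 steps were present in every rat of both sheets, with the step from Slc1a2 to Slc17a7 at 0.27 in sheet P and 0.44 in sheet Q. The smallest p that 11 rats allow is 0.000977. In blast-boldine rats alone Slc17a6 exceeded Slc17a8 by 0.65 (n = 6, exact permutation adjusted p = 0.0938) and in blast-controls alone by 1.54 (n = 5), where no p under 0.0625 can be reached.

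**Figure D3:**
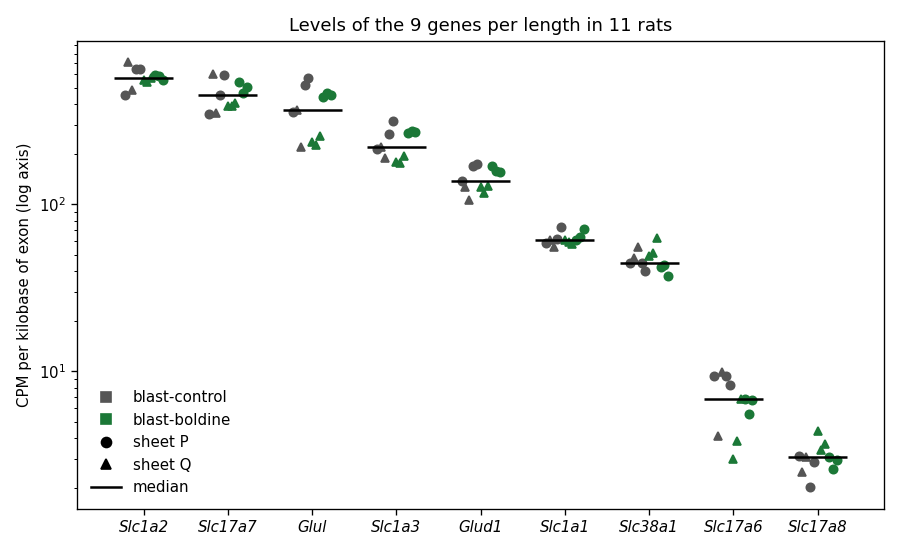
CPM per kilobase of exon (vertical axis, logarithmic) of the 9 genes, ordered by level, in the 11 rats other than rat 6, with colours for treatment, circles for sheet P, triangles for sheet Q and lines for the median. The medians fall from 567.6 for Slc1a2 to 3.07 for Slc17a8, and Slc17a6 has the widest spread, 3.36 times from its lowest to its highest rat.

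The co-variation of the members between rats was examined on log2 CPM after subtraction of the mean of each sheet, in the 11 rats other than rat 6, since the sheets separate the rats into clusters. All points of a pair share a library, its depth and its scaling. Of the 36 pairs, 8 had a Pearson's r with an adjusted p under 0.05 (exact permutation within sheets, 86400 arrangements, two-sided), 7 of them positive, and 3 of these 8 also had an adjusted p under 0.05 for Spearman's rho. The share of all gene pairs with such values was not computed, so the count is not read as a trait of these genes. Genes outside the list also had a high r with each member, the closest from 0.92 for Slc1a1 to 0.98 for Slc17a7. Among the 36 pairs, Slc1a2 and Glul had the highest r, 0.95 (n = 11, exact permutation p = 0.000243, adjusted 0.00708; rho 0.92, adjusted p = 0.0315). Slc1a3 and Glul had an r of 0.88 (n = 11, exact permutation p = 0.00218, adjusted 0.0261; rho 0.86, adjusted p = 0.0315). Slc17a7 and Slc1a3 had an r of 0.89 (n = 11, exact permutation p = 0.00352, adjusted 0.0317; rho 0.89, adjusted p = 0.0315). Without the 2 rats farthest from the median of the first gene, r was 0.89, 0.85 and 0.76 for these 3 pairs, and in sheet P alone (n = 6) it was 0.94, 0.91 and 0.94.

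The neuronal Slc17a7 thus varied together with genes of astrocytes. It had an r of 0.88 with Slc1a2 (n = 11, exact permutation adjusted p = 0.0331; rho 0.78, adjusted p = 0.0686) and of 0.89 with Glul (n = 11, exact permutation adjusted p = 0.0331; rho 0.82, adjusted p = 0.0627). Without the 2 farthest rats these fell to 0.66 and 0.68, and in sheet P they were 0.79 and 0.78. Slc1a2 with Glud1 had an r of 0.85 (n = 11, exact permutation adjusted p = 0.00708; rho 0.75, adjusted p = 0.0686) and with Slc1a3 of 0.82 (n = 11, exact permutation adjusted p = 0.0421; rho 0.71, adjusted p = 0.0928). Without the 2 farthest rats r was 0.84 for Glud1 and 0.53 for Slc1a3. The only negative pair under the threshold was Slc1a1 with Slc38a1, both transporters of neurons, with an r of -0.72 (n = 11, exact permutation adjusted p = 0.0331; rho -0.79, adjusted p = 0.0597; -0.65 without the 2 farthest rats). In sheet P alone all 8 pairs had the same sign, and none of the 36 had an adjusted p under 0.05 there (n = 6, exact permutation over 720 arrangements).

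Slc17a6 and Slc17a8 were in none of these pairs. The highest r of Slc17a6 with a member was 0.61, with Slc38a1 (n = 11, exact permutation p = 0.100, adjusted 0.200; rho 0.66, adjusted p = 0.132). With Slc17a7 it was -0.34 (n = 11, exact permutation p = 0.386; rho -0.25, p = 0.512). Slc17a8 had its largest r, -0.60, with Glul (n = 11, exact permutation p = 0.0825, adjusted 0.198; rho -0.50, p = 0.139), and this became -0.11 without the 2 rats farthest in Slc17a8.

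The summed CPM of the 10 astrocyte markers followed the astrocytic members. Within sheets its r was 0.95 with Glul (n = 11, exact permutation p = 0.000104, adjusted 0.000625; rho 0.98), 0.87 with Slc1a2 (n = 11, exact permutation p = 0.00513, adjusted 0.0103; rho 0.89) and 0.84 with Slc1a3 (n = 11, exact permutation p = 0.000394, adjusted 0.00118; rho 0.89). The adjusted permutation p of the 3 rho was 0.000347, 0.00581 and 0.00538. Without the 2 farthest rats r was 0.87, 0.70 and 0.79, and in sheet P alone (n = 6) it was 0.95, 0.92 and 0.93. The sum ran from 4590 to 6611 CPM in blast-boldine rats and from 4902 to 6826 CPM in blast-controls without rat 6, with 8 of the 10 markers lower in blast-boldine rats and a median log2 fold change of -0.12 in that fit, and 7 lower and a median of -0.08 with all 12 rats. Slc1a2, Slc1a3 and Glul were not set against any other marker list, so these relations are not shown to be particular to astrocyte markers. The neuronal Slc17a7 had an r of 0.88 to 0.89 with the same 3 members.

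**Figure D4:**
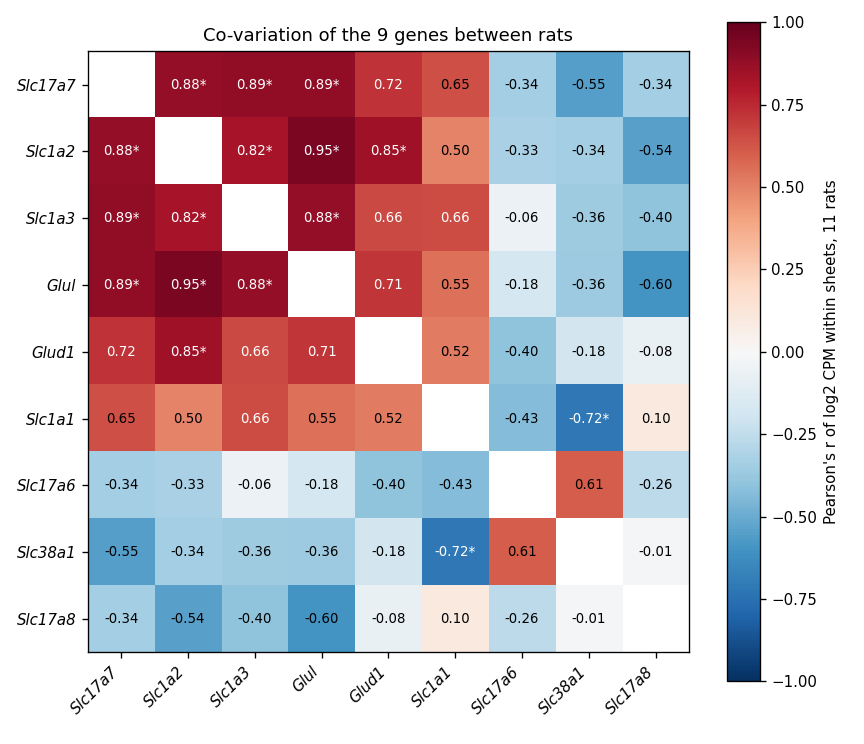
Pearson's r of log2 CPM between each pair of the 9 genes over 11 rats after subtraction of the sheet means, with colour from -1 (blue) to 1 (red) and an asterisk at an adjusted p under 0.05 of the exact permutation test. Slc17a7, Slc1a2, Slc1a3, Glul and Glud1 form a block of positive values from 0.66 to 0.95, and Slc17a6, Slc38a1 and Slc17a8 stand outside it.

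The genes whose pattern was most like that of each member were named by Pearson's r over the same 11 rats and centring, among 12037 genes with a mean of at least 1 CPM, as a description without a test. For Slc17a6 they were Igfbp6 (r = 0.96), Cntn6 (0.94), Cntn4 (0.94), Gpr153 (0.93) and Kctd8 (0.93). Igfbp6, an insulin-like growth factor binding protein, measured 5.15 CPM on average in blast-boldine rats and 9.23 CPM in blast-controls without rat 6. For Slc17a8 they were Nap1l2, Rxylt1, Tamm41, Rcn1 and Eif3d, each with an r of 0.92.

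For Slc17a7 they were Camkv (r = 0.98), Uchl1, Hpca, Pgam1 and Kcnab2, of which Hpca encodes hippocalcin, a calcium sensor of hippocampal neurons. For Slc1a2 they were Aldoc (0.97), an astrocytic aldolase, Scd2, Fbxw11, Mmd2 and Glul, so that a member stood among the 5 genes most like it. For Slc1a3 they were Ubb (0.96), Aldoa, Cds2, Dkk3 and Prnp. For Slc1a1 they were Btbd1 (0.92), Sel1l, Trim2, Rab2a and Plppr4.

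For Glul they were Ckb (0.98), the brain creatine kinase, Nat8l, the enzyme that makes N-acetylaspartate, Rab6b, Disp2 and Ctsb. For Slc38a1 they were Cdh7 (0.94), Oc90, Tox, Phyhipl and Elmo1. For Glud1 they were Borcs7 (0.93), Gabra2, Surf4, Cdc42 and Ube2d3.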

How the data were processed

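RNA was measured in 12 libraries, 6 per group, grouped by the sample labels. The authors trimmed the reads after removal of PCR duplicates, aligned them with STAR 2.7.11b to mRatBN7.2, and counted reads on RefSeq exons by strand with featureCounts of Subread 2.0.1. The deposited values are raw counts for 17494 genes. Here they were fitted with edgeR 4.0.16 in R 4.3.3 (quasi-likelihood, TMM, filterByExpr at a minimum of 10 counts, treatment only, two-sided, Benjamini-Hochberg at 0.05, 12325 genes). The study's methods name DESeq2, which was an alternative here (1.42.0), as was limma 3.58.1. CPM used the totals of the filtered genes after TMM, log2 CPM a prior count of 2, and the order of levels a pseudocount of 0.5 reads per kilobase. Permutation tests and figures used Python 3.11.15, numpy 2.4.6, scipy 1.17.1 and matplotlib 3.10.9. The fit was tested on simulated counts.

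The members and lists were chosen with earlier results of these data known. Named genes are the 9 members, the 4 other pathway genes with the largest change and any at 0, the 5 genes most like each member, and markers of described lists. Precision is limited by depth, from 10148474 to 40850106 counts, and by 74008 counts in rat 6. Alternatives were other tools and size factors, no filter, the sheet as a covariate, and each rat left out. Each library is 1 rat, so p measures the spread between rats.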

Additional observations from a re-analysis of the deposited data

Results flagged for a closer look

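A single value of the 9 genes stood apart from its group. Slc17a8 had 0 CPM in blast-control rat 6, and the gap to the next blast-control, 0.647 of the range of the group, exceeded the critical value of 0.625 for 6 samples (Dixon's criterion). The library held 74008 counts, and its floor of 3 counts is 47.5 CPM, with an exact 95% Poisson upper limit of 58.4 CPM for 0 counts. Of the 18 groups examined, 1 was marked, and chance marks about 1 in 20.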

How the results depend on the processing

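No gene had an adjusted p under 0.05 in any of the 20 alternatives to the edgeR fit. Genes with an unadjusted p under 0.05 numbered 132 of those tested, 85 with DESeq2, 279 with DESeq2 without rat 6, 254 without the filter on low counts, 474 with the sheet as a covariate, 670 with the sheet and without rat 6, and between 85 and 214 with each rat left out (85 without rat 12 or rat 17, 87 without rat 1, 214 without rat 5); the cause was not tested. Of the 9 members, 6 were lower with all rats and 3 without blast-control rat 9, and with each rat left out in turn the number ran from 3 to 6. Slc17a6 kept its sign in the 20 alternatives, between -0.81 (control rat 4 left out) and -0.51 (boldine rat 12 left out), and Slc17a8 did so from 0.22 to 0.37. Slc1a2 also kept its sign, from -0.12 to -0.02, near 0. The other 6 members, also with estimates near 0, changed sign in 2 to 8 of the 20. In blast-controls alone, where 5 rats cannot reach an adjusted p under 0.05, the 8 steps in the order of levels were 0.34, 0.24, 0.70, 0.75, 1.19, 0.42, 2.55 and 1.54, from the top down, all of the same sign. In blast-boldine rats alone 2 steps no longer passed, Slc1a1 above Slc38a1 (0.41) and Slc17a6 above Slc17a8 (0.65). The groups share no replicate numbers. No paired analysis was possible because no rat number occurs in both groups.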

Other observations

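After the values had been seen, the spread of Slc1a2 was found to differ between the groups. Its coefficient of variation was 3.69% in the 6 blast-boldine rats and 19.5% in the 5 blast-controls other than rat 6, a ratio of 0.189. Of 12038 genes with a mean of at least 1 CPM, 0.174% had a ratio as low or lower, and the median ratio was 0.971. Among the other members the ratio ran from 0.534 for Slc17a7 to 1.49 for Slc38a1. The difference in spread was not tested, and the blast-boldine rats came from both sheets.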
